A study of Homo sapiens with 4 samples.

Results

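The genes described here encode the SR proteins, the heterogeneous nuclear ribonucleoproteins (hnRNPs) and a set of core splicing factors. They were taken by gene name from the table of RNA levels: SRSF genes, TRA2A and TRA2B, SF1, the SF3A and SF3B genes, U2AF1 and U2AF2, the PRPF genes and all names that start with HNRNP, without names that mark a pseudogene. The rule found 61 of the 28283 genes in the table, namely 14 SR genes, 22 hnRNP genes, 12 factors of the branch point and 3′ splice site and 13 PRPF genes. Of these, 60 had a level of at least 1 FPKM (fragments scaled by transcript length and by the number of mapped fragments) in at least 1 input library and were compared with the 12268 genes of all kinds that passed the same minimum. SRSF12, at 0.511 FPKM in the control and 0.460 FPKM in the knockdown, was the member below it.

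SR proteins carry RNA recognition motifs and a tail rich in arginine and serine, and bind exonic enhancers to promote the use of nearby splice sites. hnRNPs coat nascent transcripts and often act against SR proteins. SF1, U2AF and the SF3A and SF3B complexes recognise the branch point and the 3′ splice site, and the PRPF proteins belong to the snRNPs and to the complexes that activate the spliceosome. Many of these genes regulate their own mRNA through introns that are kept or exons that introduce early stop codons. N6-methyladenosine (m6A) is a mark on mRNA that YTHDF2, a cytoplasmic reader, links to decay. HNRNPC and HNRNPA2B1 have been described as proteins whose binding depends on m6A, and SRSF3 and SRSF10 as partners of the nuclear reader YTHDC1.

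The study asked what silencing YTHDF2 does to the RNA and to the m6A map of A549 cells, an established line of human lung adenocarcinoma. Cells with the control vector (shNC, genotype given as control) and cells with a stable lentiviral shRNA against YTHDF2 (shY2-2, genotype given as YTHDF2 knockdown) were each measured in an input library and in a library of RNA pulled down with an antibody against m6A (IP). There were 4 libraries, 1 per group, so no value has a replicate error and no test between shNC and shY2-2 was possible. Whether the cells were cloned is not given in the sources used here. The knockdown rested on a single shRNA, and effects of that sequence other than on YTHDF2 cannot be told apart from the knockdown. YTHDF2 itself was at 3.56 FPKM in shNC and 1.02 FPKM in shY2-2, a log2 ratio of −1.18. All 6 epithelial markers were present in both inputs, and each was lower in shY2-2, by log2 ratios from −0.95 to −0.46. Of 7 markers of blood, vessel and stromal cells, 6 were below 0.396 FPKM in both inputs, and CD68, which many lines express, was at 12.2 and 10.2 FPKM. The depth of the libraries is unknown from these files.

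RNA levels of the splicing factor genes were close to each other in both input libraries. The median of the 60 genes was 26.7 FPKM in shNC and 29.0 FPKM in shY2-2, against 5.18 and 4.93 FPKM over all genes. Ratios were taken as the log2 of shY2-2 over shNC after adding 1 to each FPKM value, a scale that understates the change of low genes. The median log2 ratio was 0.04 in the splicing factor genes and 0.00 over all genes, with 33 of 60 genes higher and 27 lower in shY2-2. In bulk RNA, a lower level cannot be told apart from fewer cells that express a gene.

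Only a few members stood past 1.5-fold, and in no larger share than among all genes. Higher by more than 1.5-fold were 3 of 60 members (5.00%), against 5.38% of all genes. Lower by more than 1.5-fold were 4 of 60 (6.67%), against 8.92% of all genes. A log2 ratio above 1 was reached by 1 member, HNRNPUL2-BSCL2, against 0.986% of all genes, and a log2 ratio below −1 by 0 members, against 2.14% of all genes. With 1 library per group these counts are of ratios, not of tested differences. The plot of levels in both libraries shows how near the members lie to the line of equal levels.

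**Figure D1:**
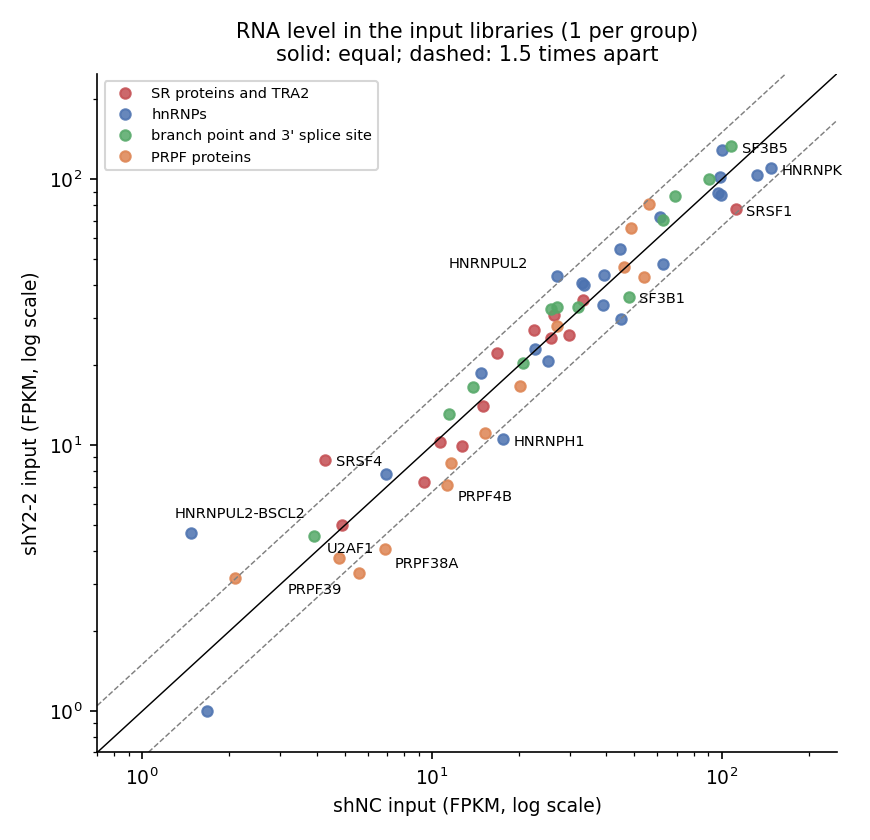
RNA level of the 60 splicing factor genes in the shNC input (horizontal, FPKM, log scale) and the shY2-2 input (vertical, FPKM, log scale), 1 point per gene and 1 library per group, with colours for the 4 gene groups. Most points lie between the dashed lines, drawn at 1.5 times higher or lower FPKM without the added 1. SRSF4, HNRNPUL2, HNRNPUL2-BSCL2 and, by little, PRPF40B lie above them, and HNRNPH1, PRPF4B, PRPF39, PRPF38A and the low point of HNRNPA1L2 below.

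Among the SR genes, 6 were higher and 7 lower in shY2-2, with a median log2 ratio of −0.02 over the 13 that passed the minimum. SRSF1, the prototype of the family and an oncogene in several tumours, was the most abundant, at 112 FPKM in shNC and 77.1 FPKM in shY2-2. Its log2 ratio of −0.53 was the lowest of the group and fell just short of 1.5-fold. SRSF4 lay at the other end, at 4.29 FPKM in shNC and 8.79 FPKM in shY2-2, a log2 ratio of 0.89. Of the 13 it was the least abundant in the shNC input and the one SR gene past 1.5-fold. SRSF8, a close relative of SRSF2, was the least abundant in shY2-2, at 4.88 FPKM in shNC and 5.02 FPKM in shY2-2.

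The other SR genes differed less. SRSF5, which is close in sequence to SRSF4 and SRSF6, was at 16.8 FPKM in shNC and 22.3 FPKM in shY2-2, a log2 ratio of 0.39. SRSF2 was at 29.7 FPKM in shNC and 26.0 FPKM in shY2-2, a log2 ratio of −0.18. SRSF3, the smallest SR protein, was at 26.5 and 31.0 FPKM, a log2 ratio of 0.22. SRSF10, which represses splicing when it loses its phosphates, was at 9.37 and 7.28 FPKM, a log2 ratio of −0.32. Of the SR-like activators, TRA2A was at 15.1 and 14.0 FPKM and TRA2B at 10.6 and 10.3 FPKM, log2 ratios of −0.10 and −0.05. The partners of YTHDC1 did not share a direction, with SRSF3 slightly higher and SRSF10 slightly lower.

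The 22 hnRNP genes had a median log2 ratio of 0.04, with 12 higher and 10 lower. HNRNPK, a KH-domain protein that binds stretches of C, was the most abundant member of all groups in shNC, at 148.5 FPKM, and stood at 110 FPKM in shY2-2. HNRNPAB led the hnRNP genes in shY2-2, at 129 FPKM, from 100 FPKM in shNC. HNRNPH1, which binds runs of G, was at 17.6 FPKM in shNC and 10.5 FPKM in shY2-2, and its log2 ratio of −0.69 was the lowest of the 60 genes. Its paralogue HNRNPH2 was just inside 1.5-fold, at 44.9 and 30.0 FPKM (log2 ratio −0.57), and HNRNPF, of the same family, was at 133 and 104 FPKM (log2 ratio −0.35). HNRNPH3, also a relative, was at 39.3 and 43.8 FPKM, so the family was not uniform.

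The abundant hnRNPs A1, A2B1 and C differed little between the libraries. HNRNPA1 was at 98.5 FPKM in shNC and 102 FPKM in shY2-2, a log2 ratio of 0.05. HNRNPA2B1 was at 96.8 and 88.8 FPKM, a log2 ratio of −0.12. HNRNPC, which binds tracts of U, was at 61.4 and 72.4 FPKM, a log2 ratio of 0.23. The pseudogenes left out of the set bear on these values, because they share sequence with the parent genes: of 42 listed, 4 had at least 10 FPKM, and HNRNPA1P7 was at 118 and 123 FPKM. How the counting divided such reads was not tested.

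HNRNPUL2 was past 1.5-fold, at 27.1 FPKM in shNC and 43.1 FPKM in shY2-2, a log2 ratio of 0.65. The readthrough gene HNRNPUL2-BSCL2, which joins HNRNPUL2 to its neighbour and shares its exons, was at 1.48 and 4.69 FPKM, a log2 ratio of 1.20. BSCL2 alone was at 13.6 FPKM in shNC and 7.09 FPKM in shY2-2, so the 3 gene models of this locus did not share a direction. HNRNPA1L2, an expressed copy of HNRNPA1, was the least abundant hnRNP gene in shY2-2, at 1.67 FPKM in shNC and 0.999 FPKM in shY2-2.

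Of the 12 branch point and 3′ splice site factors, 10 were higher and 2 lower in shY2-2, and the median log2 ratio was 0.17. Among all genes 6166 of 12268 were higher, and among those with at least 10 FPKM 2390 of 4055, with a median of 0.09. SF3B5, a small subunit of the SF3B complex, was the most abundant, at 108 FPKM in shNC and 133 FPKM in shY2-2, a log2 ratio of 0.30. SF3B4 had the highest ratio of the group, at 68.7 and 86.5 FPKM, a log2 ratio of 0.33. SF3B1, the large scaffold of the complex and a gene often mutated in blood cancers, went the other way, at 47.8 and 36.2 FPKM, a log2 ratio of −0.39. SF3B3 was level, at 20.7 and 20.4 FPKM. None of the 12 genes passed 1.5-fold.

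U2AF2, which binds the polypyrimidine tract, was at 90.4 and 100.4 FPKM, and SF1, which binds the branch point, at 31.9 and 33.2 FPKM. U2AF1, which reads the AG at the end of the intron, was the least abundant of the group, at 3.91 FPKM in shNC and 4.56 FPKM in shY2-2. The assembly holds a near-identical copy under the name U2AF1L5, at 3.96 and 4.50 FPKM and with 2 peaks in each list, so the level of U2AF1 is uncertain.

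Among the 13 PRPF genes, 8 were lower and 5 higher in shY2-2, with a median log2 ratio of −0.27. Of the 7 members past 1.5-fold, 3 belonged here, all lower, next to 8.92% of all genes lower by that much. PRPF38A, which enters the spliceosome with the tri-snRNP, was at 6.86 FPKM in shNC and 4.07 FPKM in shY2-2, a log2 ratio of −0.63. PRPF39, of the U1 snRNP, was at 5.59 and 3.32 FPKM, a log2 ratio of −0.61. PRPF4B, a kinase that phosphorylates other PRPF proteins, was at 11.3 and 7.10 FPKM, a log2 ratio of −0.60. All 3 lay close to the limit of 1.5-fold.

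The higher PRPF genes included PRPF19, the ubiquitin ligase at the centre of a complex that activates the spliceosome and the most abundant of the group, at 56.2 FPKM in shNC and 81.0 FPKM in shY2-2. Its log2 ratio was 0.52. PRPF31, a protein of the U4/U6 snRNP, was at 48.8 and 65.9 FPKM, a log2 ratio of 0.43. PRPF40B, the least abundant, was at 2.09 and 3.16 FPKM, a log2 ratio of 0.43. PRPF8, the scaffold at the catalytic centre, was at 53.8 and 42.9 FPKM, a log2 ratio of −0.32.

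**Figure D2:**
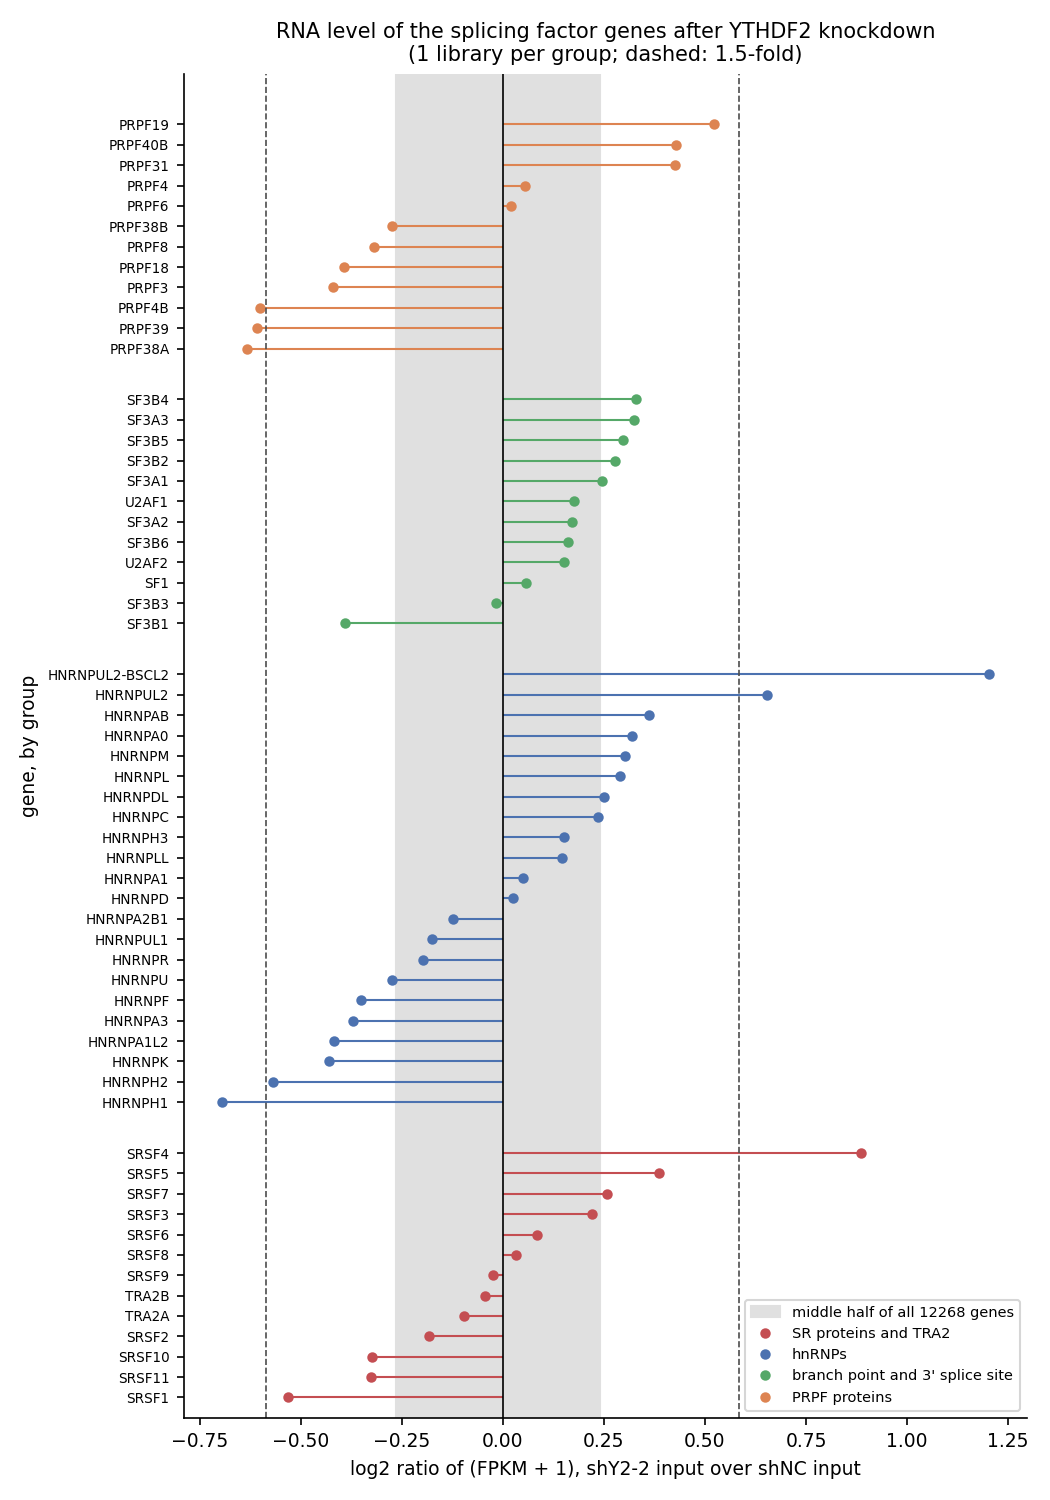
Log2 ratio of FPKM + 1, shY2-2 input over shNC input, for 59 of the 60 splicing factor genes, sorted within groups, with 1 library per group. The grey band holds the middle 50% of all 12268 genes, from −0.26 to 0.24, and the dashed lines mark 1.5-fold. The green points of the branch point and 3′ splice site factors lie above 0 in 10 of 12 genes, and the orange PRPF points below 0 in 7 of the 12 shown.

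The ratio of these genes went with the GC content of their transcripts and, less closely and inversely, with transcript length. Spearman's rho between GC content of the canonical transcript and log2 ratio was 0.54 over the 60 genes and 0.28 over 12202 genes of all kinds, as a description across genes that share the same 2 libraries. For transcript length it was −0.27 and −0.25. Over 4049 genes of all kinds with at least 10 FPKM, rho was 0.27 for GC content and −0.31 for length. In the third of members with the lowest GC content, 35.1% to 41.0%, 13 of 20 were lower in shY2-2 and the median log2 ratio was −0.23. In the third with the highest, 50.9% to 66.5%, 17 of 20 were higher and the median was 0.29. Genes of all kinds with at least 10 FPKM within the same limits had medians of −0.16 and 0.17, and 33.7% and 69.2% of them were higher, next to 7 and 17 of 20 members. The branch point and 3′ splice site factors had a median GC content of 53.5%, the PRPF genes 47.6%, the hnRNP genes 42.6% and the SR genes 41.0%. The part of GC content or of transcript length in the ratios was not tested.

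**Figure D3:**
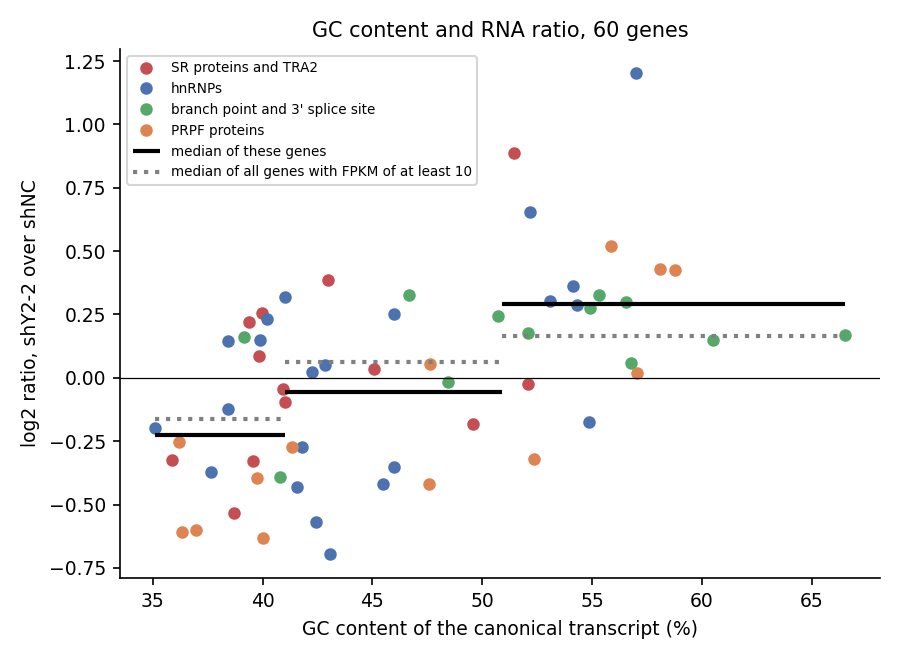
GC content of the canonical transcript (horizontal, percent) against the log2 ratio of RNA, shY2-2 over shNC (vertical), for the 60 splicing factor genes, coloured by group. Black bars are the medians of the members in 3 equal parts by GC content, −0.23, −0.06 and 0.29, and dotted bars those of all genes with at least 10 FPKM within the same limits, −0.16, 0.06 and 0.17.

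Other genes of the splicing machinery were spread about 0 as well, with the snRNP proteins mostly above it. Over 115 genes of 5 lists (snRNP proteins, helicases with the PRPF19 complex, the exon junction complex, SR protein kinases and other splicing regulators), the median log2 ratio was 0.01. Higher by more than 1.5-fold was 1 of the 115, against 5.38% of all genes, and lower were 8, against 8.92%. The 32 snRNP proteins had a median log2 ratio of 0.23, and 26 of them were higher. SNRPD2, a Sm ring protein, had the lowest ratio of the 6 that were lower, at 111 FPKM in shNC and 45.5 FPKM in shY2-2, a log2 ratio of −1.27. The 29 helicases and PRPF19 complex genes had a median of −0.07, with 10 higher, the 9 exon junction genes 0.07, with 8 higher, and the 7 kinases −0.03, with 1 higher. The 38 other splicing regulators had a median of −0.08 and 5 genes lower by more than 1.5-fold, next to the same 8.92% of all genes. Of these, MBNL2, a muscleblind splicing regulator, had the lowest log2 ratio, −1.07.

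Listed m6A peaks lay on nearly all members, and on fewer under stricter limits. The peak lists hold stretches of transcript where the IP exceeded the input. Of 31057 shNC peaks 212, and of 27344 shY2-2 peaks 186, belonged to these genes. Many listed peaks did not reach an FDR of at most 0.05: 158 of 212 and 130 of 186 member peaks did (74.5% and 69.9%). Over all peaks the shares were 56.4% and 52.1%, and over peaks of genes with at least 10 FPKM 72.6% and 71.4%. Counts, lengths and shares below cover all listed peaks unless an FDR limit is given. A peak in both lists was found for 58 of 60 members, against 72.7% of all genes. With peaks of an FDR of at most 0.05 alone, it was found for 49 of 60 members, against 51.0% of all genes. With peaks of at least 2-fold enrichment alone, it was found for 39 of 60 members, against 51.9%. The share was high in abundant genes of any kind: of those with at least 10 FPKM in at least 1 input, 88.4% had peaks in both lists, as did 49 of 49 members. U2AF1 had 1 peak in shNC, with 2.67-fold enrichment and an FDR of 0.131, and none in shY2-2. HNRNPUL2-BSCL2 had none in either list, while peaks in the exons it shares were assigned to HNRNPUL2. Of the 115 other splicing genes, 108 had peaks in both lists.

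Of the 5 strongest member peaks with an FDR of at most 0.05 in shNC, 4 were also strong in shY2-2. Fold enrichment is the ratio of IP over input within a peak. TRA2A had a peak of 18.3-fold in shNC and 11.0-fold in shY2-2. HNRNPL, which binds CA repeats, had one of 14.3-fold and 11.6-fold over the start of its transcript. HNRNPUL2 had one of 13.5-fold and 12.2-fold in its 3′ UTR, and SRSF3 one of 10.0-fold and 10.5-fold in an intron. All 4 had an FDR under 0.05 in both lists. A 14.5-fold peak in the 3′ UTR of SF3B3 (FDR 0.00363) in shNC was met in shY2-2 by a peak of 61 bases with 3.08-fold enrichment and an FDR of 0.133.

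The adenosine of m6A usually lies in a short motif of which GGAC is the core. Among the 12 pairs of overlapping member peaks with an FDR of at most 0.05 and the highest enrichment in both lists, 9 held GGAC in the bases common to both, and among all 114 pairs 55 did (48.2%). The same share over pairs of all genes is not given here. Shared length ran up to 1650 bases, in HNRNPA0, and these counts were not adjusted for it. The following windows are shown because they place the mark's core motif within the strongest shared peaks, 1 for each of 5 genes. Each is read from GRCh38 on the strand of its gene, 5′ to 3′, and capitals mark GGAC, or GGACT where a T follows. The positions are those of the whole window.
HNRNPL coding sequence, exon 1 of 13, chr19:38849889-38849909, minus strand: cagcagccGGACgagcagcgg
HNRNPUL2 3′ UTR, exon 14 of 14, chr11:62714910-62714930, minus strand: aggcagctGGACTggcagcca
HNRNPA0 3′ UTR, exon 1 of 1, chr5:137752937-137752957, minus strand: ctgaagatGGACTcggcccca
PRPF19 coding sequence, exon 16 of 16, chr11:60891184-60891204, minus strand: acaggcatGGACagaagcctc
SRSF5 3′ UTR, exon 8 of 8, chr14:69771847-69771867, plus strand: atagctttGGACacttaaaag

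The peak around the HNRNPA0 window held 5.25-fold enrichment in shNC and 4.02-fold in shY2-2, that of PRPF19 7.08-fold and 7.56-fold and that of SRSF5 4.55-fold and 4.94-fold. The HNRNPA0 peak held 9 GGAC in its shared bases. The strong peaks of TRA2A and SRSF3 and the 14.5-fold peak of SF3B3 held no GGAC.

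GGAC was found in a smaller share of the members' peaks than of all peaks in shNC, while in shY2-2 the interval of the members held the general share. It was found in 52.4% of 212 member peaks in shNC (95% Wilson interval 45.7% to 59.0%) and in 53.8% of 186 in shY2-2 (46.6% to 60.8%), against 61.0% and 60.6% of all peaks. Per kilobase of peak sequence the members held 3.39 and 3.30 GGAC, and all peaks 4.10 and 3.95. Peaks of members with at least 10 FPKM held it in 51.6% (44.5% to 58.5%) and 54.1% (46.6% to 61.4%), against 62.6% and 61.4% for genes of all kinds at that level, and again the shY2-2 interval alone reached the general share. With the longer motif GGACT the members were at 21.2% and 22.6%, and all peaks at 28.7% and 29.1%. The motif was searched on the strand of the gene alone, and the intervals cover counting error only.

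Enrichment itself was modest and alike in both lists. The median fold enrichment over member peaks was 1.90 in shNC and 1.87 in shY2-2, against 2.17 and 2.26 over all peaks. For peaks of genes with at least 10 FPKM the medians were 1.85 and 1.88, and for members at that level 1.78 and 1.80. In 114 pairs in which a member peak overlapped 1 peak of the other list, the median log2 ratio of enrichment, shY2-2 over shNC, was −0.05, against −0.06 over 12206 pairs of all genes. Enrichment was higher in shY2-2 in 51 pairs and lower in 62.

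By more than 2-fold in enrichment differed 7.89% of the member pairs, 4 higher and 5 lower in shY2-2, against 9.82% of all pairs. A peak near the end of HNRNPM, an RNA-binding protein that regulates alternative splicing, went from 1.47-fold to 10.4-fold as it grew from 389 to 927 bases, 503 of them outside the canonical transcript. In TRA2B a 3′ UTR peak went from 2.09-fold over 181 bases to 8.09-fold over 420 bases. In HNRNPA2B1 another 3′ UTR peak went from 1.98-fold over 450 bases to 6.94-fold over 659 bases. In these 3 the wider peak had the higher value, while in HNRNPU a peak of 1.96-fold over 391 bases was met by one of 4.63-fold over 361 bases. The FDR was under 0.05 in both lists for all 4. The lower pairs were the SF3B3 peak above, PRPF18 (4.96-fold and 2.06-fold, with 1 base shared), PRPF3 (3.05-fold and 1.25-fold), SF3B2 (4.58-fold and 1.96-fold) and SRSF9 (2.54-fold and 1.26-fold). Of these 5, SF3B2 alone had an FDR under 0.05 in both lists. SF3B1 had 6 peaks in shNC and 3 in shY2-2, none above 2.07-fold, so its m6A signal was weak in both.

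Peaks recurred between the lists about as often as in other abundant genes. Of the shNC member peaks 147 of 212 (69.3%, 62.8% to 75.2%) overlapped a shY2-2 peak, and of the shY2-2 member peaks 153 of 186 (82.3%, 76.1% to 87.1%) overlapped a shNC peak. Over all peaks the shares were 55.9% and 65.4%. For peaks of genes with at least 10 FPKM they were 69.5% and 81.2%, next to 71.9% and 83.5% for the members at that level. By the location given with the peaks, 59.4% and 57.0% of member peaks lay in the 3′ UTR, against 59.1% and 59.5% of all peaks.

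The exonic length under peaks was shorter in shY2-2 for most members, as for genes in general. Of 58 members with peaks in both lists, 40 had less and 18 more, and the median ratio of shY2-2 over shNC was 0.82, against 0.84 for all genes. It was lower by more than 1.5-fold in 18 of 58 (31.0%), against 34.3% of all genes with peaks in both lists, and higher by more than 1.5-fold in 5 of 58 (8.62%), against 14.9%. The RNA ratio and the ratio of bases under peaks had a Spearman's rho of 0.22 over the 58 members and 0.12 over 8915 genes, as a description. The plot of kilobases under peaks shows the genes that leave the diagonal.

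**Figure D4:**
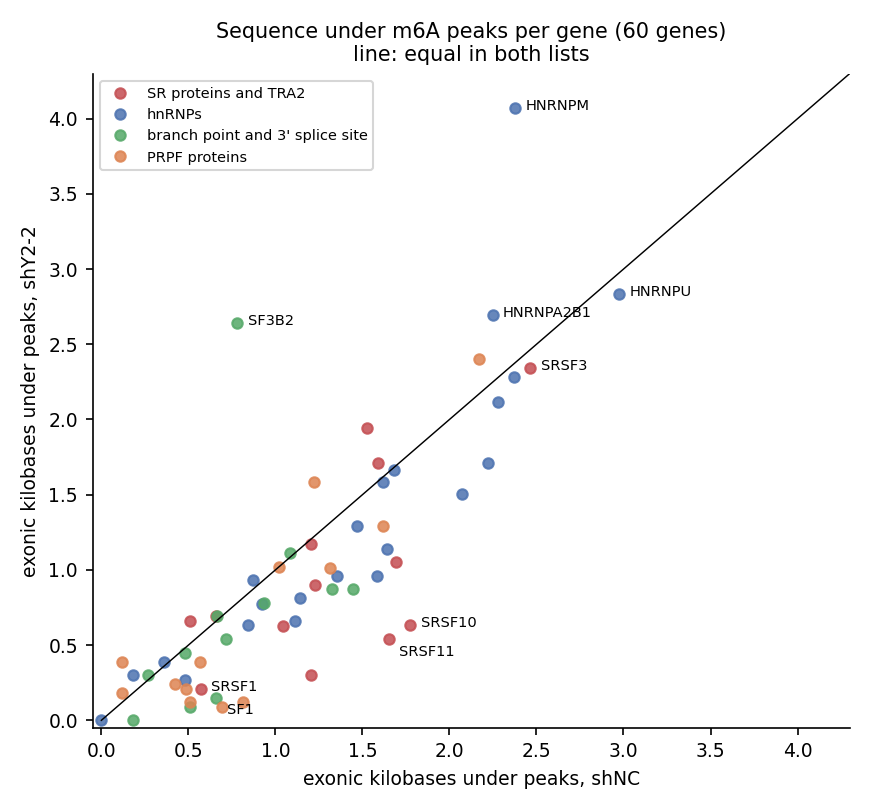
Exonic kilobases under m6A peaks for each of the 60 splicing factor genes in shNC (horizontal) and shY2-2 (vertical), 1 point per gene, coloured by group, with the line of equal length. SF3B2 and HNRNPM lie above the line, at 2643 and 4074 bases in shY2-2, and SRSF10 and SRSF11 well below it, at 632 and 540 bases.

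Among the SR genes, peaks covered less in shY2-2 in 9 of 13. The lowest ratio was that of SRSF8, with 3 peaks over 1207 bases in shNC and 1 over 299 bases in shY2-2. SRSF1 had 5 peaks over 570 bases in shNC and 1 peak over 210 bases in shY2-2. Its shNC peaks were at 1.08-fold to 1.21-fold apart from 90 bases at 6.87-fold (FDR 0.196), and its shY2-2 peak at 1.71-fold. SRSF10 had 7 peaks over 1776 bases in shNC and 3 over 632 bases in shY2-2. SRSF11 had 5 over 1650 bases and 2 over 540 bases. The RNA ratios of these genes differed: SRSF1, SRSF10 and SRSF11 (12.7 FPKM in shNC and 9.92 FPKM in shY2-2) were lower in RNA, SRSF8 was level at a log2 ratio of 0.03, and SRSF4, whose peaks covered 1228 bases in shNC and 900 in shY2-2, was higher. SRSF2 held 2 peaks in each list, the stronger in its 3′ UTR at 3.39-fold and 2.80-fold. TRA2A had 3 peaks in shNC and 2 in shY2-2.

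Outside the SR genes, SF1 went from 4 peaks over 661 bases to 1 over 150 bases. SF3B2 went the other way, from 782 bases in shNC to 2643 in shY2-2, of which 1170 lay in a single peak of 3.08-fold (FDR 0.00661) in intron 19. HNRNPM went from 2377 to 4074 bases. HNRNPU, a scaffold protein of the nucleus, held the most peaks, 10 in each list, over 2975 and 2837 bases. Of these, 3 in each list shared bases with exons of its neighbour COX20. HNRNPC had 4 peaks in each list and HNRNPA1 5 in shNC and 3 in shY2-2, the strongest with an FDR under 0.05 at 3.92-fold and 2.31-fold for HNRNPC and at 1.52-fold and 1.61-fold for HNRNPA1.

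Some peaks could belong to a neighbouring gene. The lists give the strand of the assigned gene and not of the peak, and 31 of 212 and 26 of 186 member peaks had at least 50% of their bases in exons of another gene on either strand. Examples are HNRNPA3 with NFE2L2, SRSF9 with GATC, PRPF31 with TFPT, PRPF4 with CDC26 and PRPF40B with FMNL3. The 10.4-fold peak of PRPF31 in shY2-2 shared 248 of its 803 bases with TFPT. Peaks listed under 1 gene can also overlap each other, and then count 2 times. HNRNPUL2 was listed with 8.45-fold and 8.01-fold over nearly the same bases of its first exon in shNC, and with 9.52-fold and 9.56-fold in shY2-2. The 8.01-fold and 9.56-fold peaks reached position 62727384, the end given for HNRNPUL2-BSCL2, past that of HNRNPUL2 (62727349). They may thus belong to the readthrough gene. Peaks mostly on exons of another gene were 14.6% and 14.0% of member peaks, against 19.5% and 20.1% of all peaks. For genes of all kinds with at least 10 FPKM the shares were 13.9% and 14.4%, next to 14.6% and 14.7% for members at that level.

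Peaks in retained introns were more common in these genes than elsewhere. This measure was chosen after the values were seen. Sequence that GENCODE lists only in transcripts with a retained intron made up at least 50% of the bases in 30 of 212 member peaks in shNC (14.2%, 10.1% to 19.5%) and in 29 of 186 in shY2-2 (15.6%, 11.1% to 21.5%). Over all peaks the shares were 5.46% and 6.11%. For genes of all kinds with at least 10 FPKM they were 7.50% and 8.29%, next to 15.1% (10.7% to 20.9%) and 16.5% (11.6% to 22.8%) for members at that level. The intervals of the members lay above the general shares in both lists, and peaks of 1 gene are not independent of each other.

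The members also had more of such sequence annotated. Retained-intron sequence was listed for 41 of 60 members (68.3%), with a median of 484.5 bases over all 60, and for 58.1% of genes with at least 10 FPKM, with a median of 236 bases over that set. Peaks covered 10.1% of these bases in shNC and 10.7% in shY2-2 in the members, against 6.75% and 7.56% in genes with at least 10 FPKM. Over the canonical exons the coverage was alike, 25.0% and 19.7% in the members and 25.8% and 20.7% in genes with at least 10 FPKM.

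The intronic peaks came from 25 members, 10 of which had one in both lists. In the SR genes they were 14 of 57 peaks in shNC and 6 of 41 in shY2-2, in the hnRNP genes 9 of 86 and 16 of 89, in the branch point and 3′ splice site factors 7 of 36 and 5 of 26, and in the PRPF genes 0 of 33 and 2 of 30. These counts were lower in shY2-2 for the SR genes and higher for the hnRNP genes. With an FDR of at most 0.05 they were 12 and 4 in the SR genes, but 8 and 9 in the hnRNP genes. The shNC count of the SR genes includes SRSF9 peaks of 1.60-fold and 1.51-fold over nearly the same bases of intron 3, in exons of GATC. That of the hnRNP genes includes overlapping HNRNPK peaks of 1.38-fold and 1.18-fold, in exons of HNRNPK-AS1. The differences between the lists were not tested. Of the 30 shNC peaks, 24 had an FDR of at most 0.05, and of the 29 shY2-2 peaks, 16. For such peaks in genes of all kinds with at least 10 FPKM, the shares were 58.2% in shNC and 59.6% in shY2-2. The share of the members was thus above the general one in shNC and slightly below it in shY2-2.

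The strongest examples were SRSF3 and TRA2A. In SRSF3 the peak at chr6:36597006-36597156 in shNC and chr6:36596946-36597156 in shY2-2 lay in intron 2, at the end of exon 2 of 6, with FDR values of 1.58e-36 and 3.98e-52. Retained-intron sequence made up 151 of its 151 bases in shNC and 188 of 211 in shY2-2. A weaker peak at chr6:36601055-36601354, over introns 3 and 4, was at 2.80-fold in shNC and 2.15-fold in shY2-2. In TRA2A the peak at chr7:23505763-23506432 in shNC held 418 bases, 238 of them in retained-intron sequence of introns 5 and 6, and in shY2-2 268 of 448 bases. The maps of the 2 genes show these peaks beside the exons.

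**Figure D5:**
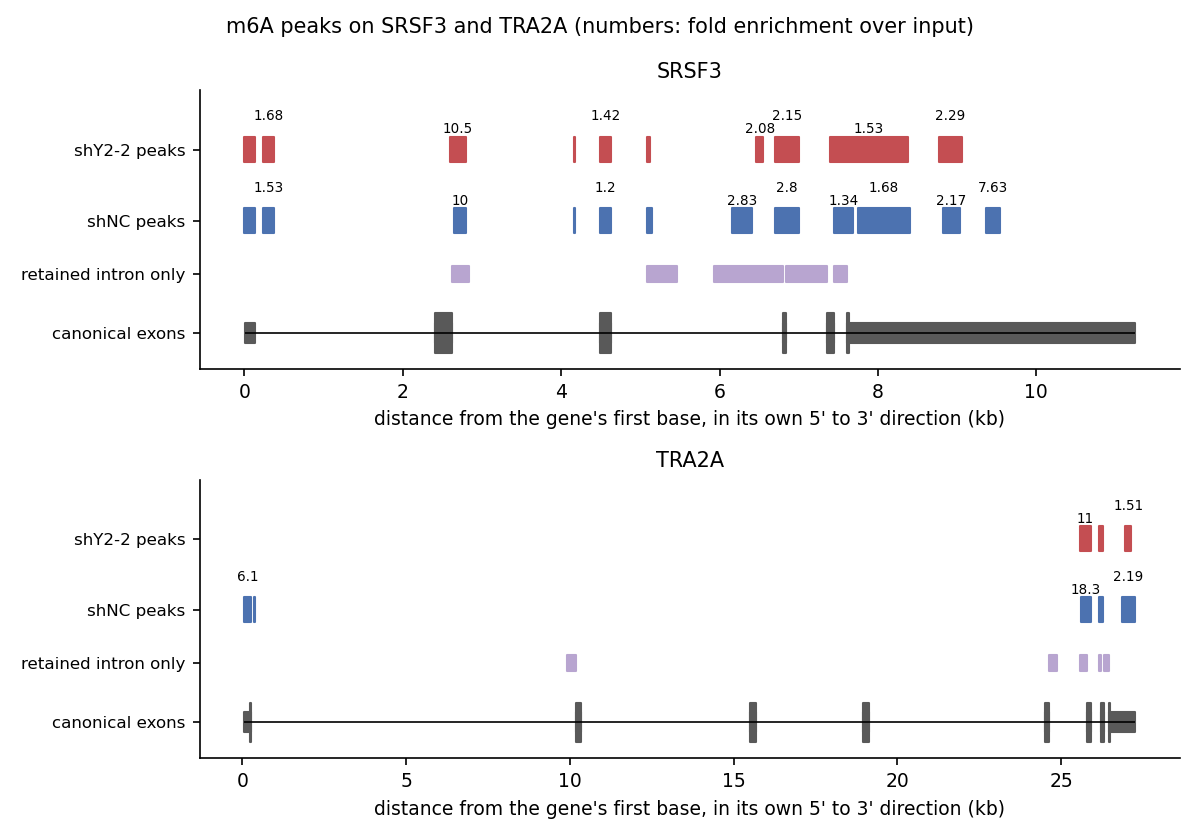
Canonical exons (dark, taller where coding), sequence annotated only in retained-intron transcripts (purple) and m6A peaks in shNC (blue) and shY2-2 (red) along SRSF3 and TRA2A, in kilobases from the first base of the gene. Numbers above the peaks are fold enrichment, and a peak can be split over several blocks. The peaks of 10.0-fold and 10.5-fold in SRSF3 and of 18.3-fold and 11.0-fold in TRA2A lie on or beside purple segments.

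Other members had intronic peaks in both lists. HNRNPL had one in intron 6, at 3.53-fold in shNC (FDR 0.00501) and 3.08-fold in shY2-2 (FDR 0.00661). A stronger HNRNPL peak, at 5.01-fold and 4.76-fold, held 166 bases of retained-intron sequence, which was 166 of 271 bases in shY2-2 and 166 of 360 in shNC. SF3B2 had one in intron 21, at 4.58-fold and 1.96-fold. HNRNPAB had one in intron 2, its single peak, at 1.68-fold and 2.31-fold. TRA2B had one in intron 1, at 2.29-fold (FDR 0.0295) and 2.60-fold (FDR 0.245). SF3B1 had a weak one in intron 20, at 1.25-fold and 1.18-fold. In SRSF10 a peak of 4.83-fold in intron 2 (FDR 0.0407) was listed in shNC alone.

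Counting all sequence outside the canonical transcript, at least 50% of the bases lay outside it in 27.4% (21.8% to 33.7%) of member peaks in shNC and 30.6% (24.5% to 37.6%) in shY2-2, against 24.2% and 27.9% of all peaks. Exons with early stop codons lie in transcripts subject to nonsense-mediated decay. Sequence of these transcripts that is absent from canonical and protein-coding ones was counted next, though retained-intron transcripts can share it. It was touched by 5.66% (3.27% to 9.63%) and 5.91% (3.33% to 10.3%) of member peaks, against 3.69% and 3.63% of all peaks. In SRSF7 these bases numbered 183 in a peak of 1.64-fold in shNC and 1.35-fold in shY2-2. The HNRNPU peak of 1.96-fold in shNC and 4.63-fold in shY2-2 held 187 and 217 such bases, and its peaks at COX20 lay wholly in such sequence. In all these HNRNPU peaks, retained-intron transcripts also held at least 50% of the bases outside the canonical transcript. A peak of HNRNPUL1 held 153 such bases at 1.53-fold in shNC and 150 at 1.55-fold in shY2-2.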

How the data were processed

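Poly(A) RNA from A549 cells was fragmented, a share was pulled down with an antibody against m6A, and strand-specific libraries were sequenced. Per the labels, fastp, HISAT2 and StringTie were used with GRCh38, and peaks were handled with HOMER and ChIPseeker, while the study's methods name exomePeak. Versions and the annotation release are not given in the sources used here. The authors deposited FPKM per gene for the 2 input libraries. They also deposited 1 peak list per condition, each from 1 IP and 1 input, with fold enrichment (a ratio) and the log10 of the FDR, entered as a score because some values reach minus infinity. Library sizes are not in these files, so depth is unknown.

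Members and gene lists were chosen with earlier results of these data known. Ratios used a pseudocount of 1, and genes needed 1 FPKM in at least 1 input. Peaks met when they shared 1 exonic base on the same gene strand. Canonical transcripts, GC content, retained-intron and nonsense-mediated decay sequence came from GENCODE 44, which holds all 61 members, 18 with the same start and end as in the table. Groups were compared as values with no test. Of the members, 1 is counted but not reported singly here. Shares carry 95% Wilson intervals, which cover counting error only. The genes named were the extremes of level and ratio in each group, all members past 1.5-fold, the strongest peaks, members with most or no peaks or with peaks outside the canonical transcript, and 11 genes listed by name whatever their values (HNRNPA2B1, HNRNPC, HNRNPA1, SRSF1, SRSF2, SRSF3, SRSF10, TRA2A, TRA2B, U2AF1 and SF3B1). Genes named for their intronic or overlapping peaks, the near copies and the other members of a described family were chosen after their values were seen. Python 3.11.15, pandas 2.3.3, NumPy 2.4.6, SciPy 1.17.1 and matplotlib 3.10.9 were used, and calls and overlaps were tested on simulated data.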

Additional observations from a re-analysis of the deposited data

How the results depend on the processing

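Of 61 values recomputed under other settings for 27 results, 51 stayed within 1.5 times (counts), within the 95% interval (shares and medians) or past the same fold limit with the same sign (single genes), and none changed sign. The members with a peak in both lists counted as within 1.5 times, though they fell from 58 to 49 at an FDR of at most 0.05. At a fold enrichment of at least 2 they fell to 39. Centring on the median of genes with at least 1 FPKM in both inputs shifted ratios by 0.01. With a pseudocount of 0.1, 13 in place of 8 other splicing genes were lower by more than 1.5-fold. The share over all genes at that pseudocount is not given here. Among peaks with an FDR of at most 0.05, GGAC was found in 60.1% of member peaks in shNC and 63.1% in shY2-2. Over all such peaks the shares were 72.2% and 71.3%. At that FDR, 89.2% of shY2-2 member peaks met a shNC peak, against 77.1% of all shY2-2 peaks. GGACT was found in 21.2% and 22.6% of member peaks, against 28.7% and 29.1% of all peaks. Counting 1 base outside the canonical transcript gave 55.2% and 53.8%, against 44.4% and 45.1% of all peaks. Counting 1 base in retained-intron sequence, an alternative added after seeing the data, gave 31.1% and 26.9%, against 14.5% and 13.2% of all peaks. The cause of these moves was not tested, apart from the wider or narrower definitions themselves. No paired analysis was possible because each group has 1 library.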
